A study of Mus musculus with 15 samples.

Results

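The 50 genes examined here encode the WNT ligands other than *Wnt4* and *Wnt5a*, the Frizzled and other WNT receptors, the secreted WNT inhibitors, the R-spondins other than *Rspo1*, and the 2 proteins that load and release WNTs. They were chosen by name. Each had 1 transcript cluster, the array's unit for a transcribed region, that carried its symbol alone, so all 50 were measured, among 30176 gene symbols and 65956 clusters on the array. By role they were 17 ligands, 10 Frizzled receptors, 5 other receptors and co-receptors, 13 secreted inhibitors and Kremen proteins, 3 R-spondins and 2 secretion factors.

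Whole gonads were taken from mouse embryos at day 15.5 (E15.5), and the RNA of each sample was read on 1 Affymetrix transcriptome array, with 5 arrays in each of 3 groups. The dKO XY group held gonads of XY embryos with the genotype *Amh*-/-; *Inhbb*-/-. These are null alleles of the genes for AMH, the anti-Müllerian hormone, and for the subunit that forms activin B. The study describes dKO XY gonads of this age as ovotestes, in part ovarian, with FOXL2-positive cells at their poles. The control XX group held ovaries and the control XY group testes, both from wild type litter mates of crosses between *Amh*+/-; *Inhbb*+/- mice. Both alleles are constitutive, so every cell of the dKO XY embryo carried them, and neither single knockout is among the arrays. The study describes gonads dissected away from the mesonephros, on a C57BL/6 background, as biologically independent samples. The age follows the labels, since the data statement of the study places these arrays at an earlier stage.

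WNT proteins are secreted signals that carry a lipid, added by Porcupine and needed for their transport by Wntless. They bind Frizzled receptors, with LRP5 or LRP6 when the signal runs through beta-catenin and with ROR or RYK receptors in other branches. Secreted antagonists hold WNTs (SFRP proteins and WIF1), block LRP5 and LRP6 (DKK1 and some relatives), or strip the lipid (NOTUM), while R-spondins prolong the signal by protecting Frizzleds from removal. In the fetal ovary, WNT4 and R-spondin 1 act through beta-catenin in the granulosa cell lineage, and this signal is held low in the testis.

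Levels are given in the deposited log2 units, group means with their SD (n = 5) and differences with their SE. That scale runs to 19.93, beyond the 16 that a 16-bit scanner allows on plain log2, so no fold changes are given. A gene is said to have passed the test when its limma p value, adjusted by Benjamini-Hochberg over all 65956 clusters, was below 0.05, and to be called when the difference was also at least 1 unit. Array medians lay between 5.17 and 5.33. Of the 50 genes, 25 had a group mean above 5.95, the 95th percentile of 23 background probe sets, but only 2 of the 17 ligands did (*Wnt2b* and *Wnt6*). The targeted genes differed by -6.96 (*Amh*) and -1.26 (*Inhbb*) between dKO XY and control XY. *Inhbb* kept signal, at 9.27 ± 0.10 in dKO XY, 9.18 ± 0.10 in control XX and 10.53 ± 0.12 in control XY, and whether its probes lie in the deleted part was not examined. The Sertoli cell gene *Sox9* averaged 9.90 in dKO XY, 6.95 in control XX and 9.99 in control XY, and the granulosa cell gene *Foxl2* 5.21, 7.16 and 4.13 in the same groups, so the labelled tissues carried their defining markers.

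The share of these genes called between the dKO XY gonads and the control testes was 2%, near the 2.19% of all clusters. Between dKO XY and control XY, *Wnt2b* alone was called higher and 0 genes were called lower, where 0.567% and 1.62% of all clusters were called. By the test alone, 4 genes were higher (*Wnt2b*, *Wnt6*, *Fzd5* and *Wif1*) and 3 were lower (*Ror2*, *Sfrp4* and *Kremen2*). These 8% and 6% of the 50 stood beside 4.41% and 6.02% of all clusters. The median difference was 0.01, as over all clusters. The 95% interval of the difference lay within 1 unit of 0 for 48 of the 50 genes, the exceptions being *Wnt2b* and *Sfrp1*. That count includes the genes near background, since only 25 of the 50 had a group mean above 5.95. For a gene near background, a narrow interval does not show a stable level of its RNA.

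**Figure D1:**
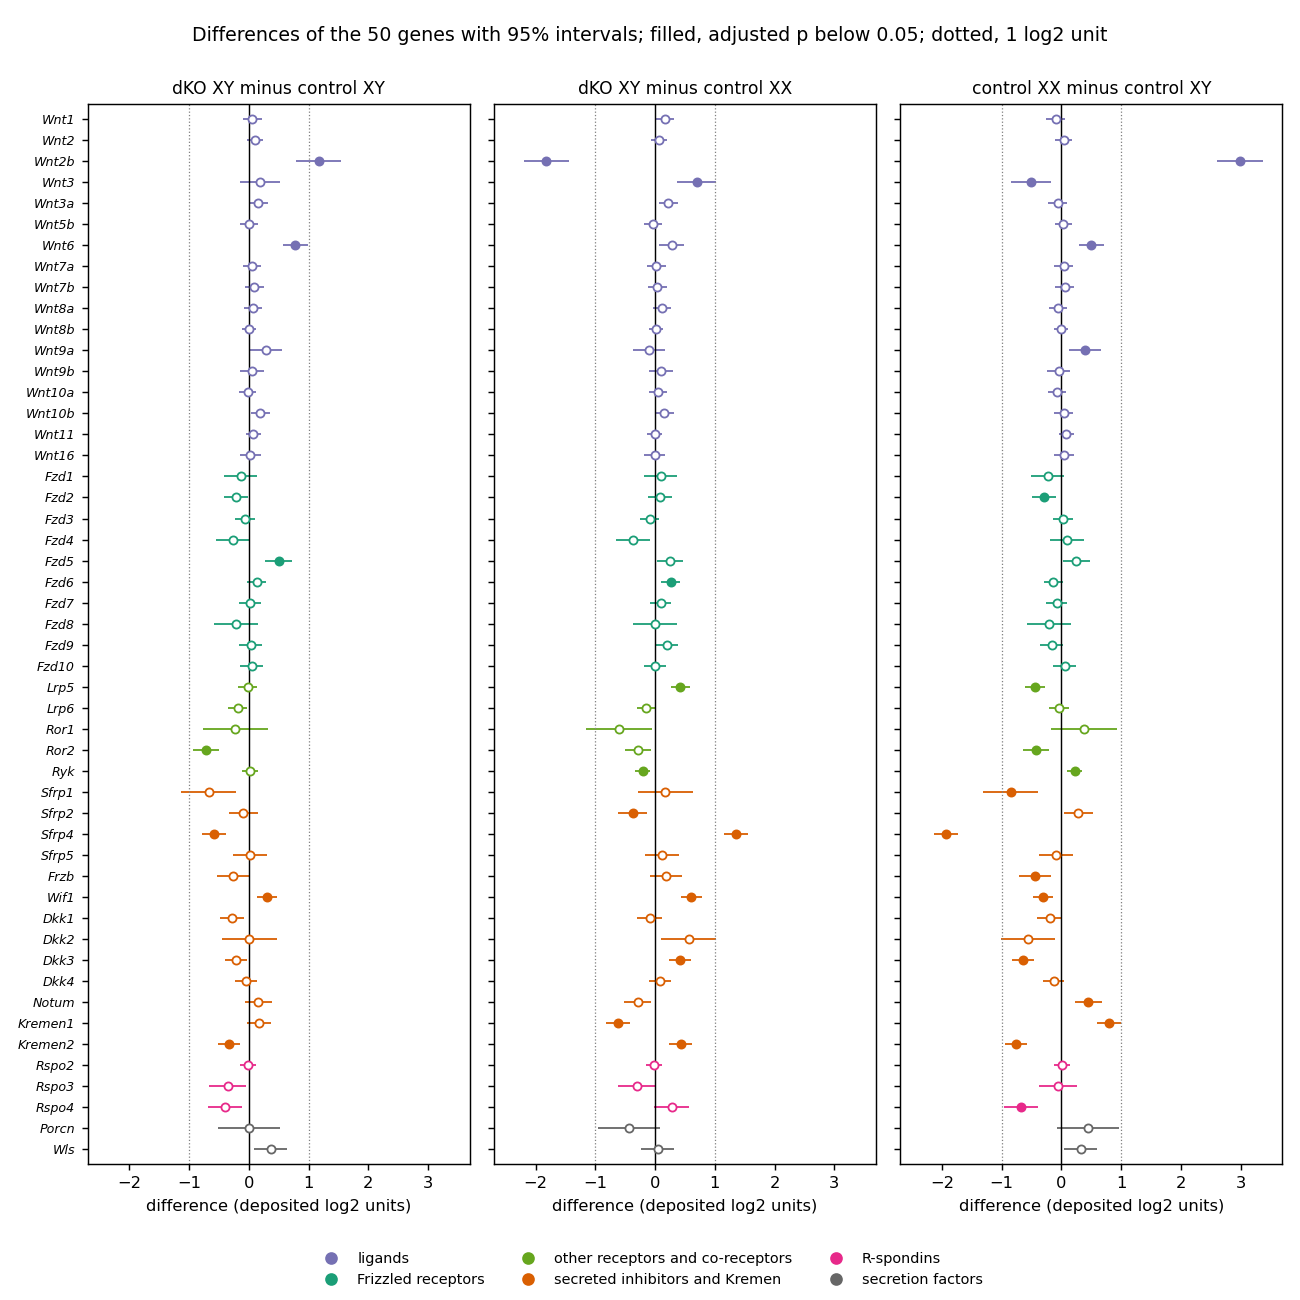
Differences of all 50 genes in deposited log2 units (points) with 95% intervals (lines), for dKO XY minus control XY (left), dKO XY minus control XX (middle) and control XX minus control XY (right); colours give the role, filled points passed the test and dotted lines mark 1 unit. *Wnt2b* is the only gene past 1 unit in the left panel, at 1.17, and *Wnt2b* and *Sfrp4* are the only genes past it in the other panels.

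The promoters of *Wnt2b*, *Wnt6* and *Ror2* are shown because these genes had the largest differences in each direction between dKO XY and control XY. Each sequence is the 250 bases before an annotated start, taken from RefSeq on GRCm38.p6 and read 5′ to 3′ on the gene's strand. The *Wnt6* window lies inside the annotated span of its gene (chr1:74754342-74785322), so its start is not the outermost one. Capitals mark GGCGCC, a GC-rich element that SMAD1 and SMAD5, the SMADs of the AMH pathway, can bind.
*Wnt2b*, chr3:104961710-104961959, minus strand: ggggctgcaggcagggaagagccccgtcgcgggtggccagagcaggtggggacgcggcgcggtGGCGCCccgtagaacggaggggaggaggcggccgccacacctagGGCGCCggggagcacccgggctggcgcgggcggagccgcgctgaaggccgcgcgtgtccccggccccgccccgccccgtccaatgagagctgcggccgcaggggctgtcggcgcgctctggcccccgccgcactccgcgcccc
*Wnt6*, chr1:74771642-74771891, plus strand: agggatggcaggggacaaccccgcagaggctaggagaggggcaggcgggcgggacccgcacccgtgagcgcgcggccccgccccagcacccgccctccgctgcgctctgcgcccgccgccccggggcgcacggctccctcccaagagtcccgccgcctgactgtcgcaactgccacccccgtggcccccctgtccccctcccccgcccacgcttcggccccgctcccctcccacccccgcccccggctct
*Ror2*, chr13:53286125-53286374, minus strand: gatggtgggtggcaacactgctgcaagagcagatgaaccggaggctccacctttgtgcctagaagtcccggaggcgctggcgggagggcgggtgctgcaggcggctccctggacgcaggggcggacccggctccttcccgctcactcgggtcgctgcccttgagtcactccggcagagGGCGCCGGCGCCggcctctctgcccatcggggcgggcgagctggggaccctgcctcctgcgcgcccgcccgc

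These windows were rich in G and C, at 80.8% in *Wnt2b*, 79.6% in *Wnt6* and 73.2% in *Ror2*. GGCGCC, which reads the same on both strands, stood 2 times in the window of *Wnt2b*, 2 times side by side in that of *Ror2* and not in that of *Wnt6*. It was present in 9.59% of all 32851 windows of this length, with no allowance for base composition. Of the 32 genes of the set with a window, 9 had it, namely *Wnt2*, *Wnt2b*, *Wnt3a*, *Wnt9a*, *Wnt11*, *Fzd4*, *Fzd9*, *Fzd10* and *Ror2*. Neither TCF/LEF word searched on both strands (CTTTGAA, in 4.46% of windows, and CTTTGTT, in 5.03%) was in the 3 windows shown, and among the 32 genes they were found in *Dkk1* (both) and *Fzd7* (the second). The NR5A1 word CAAGGTC (3.32% of windows) was found in *Wnt5b* alone, and the SMAD3/4 palindrome GTCTAGAC (0.167%) in none of the 32. No searched words overlapped in the windows shown. A match here is a description of letters only.

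Among the ligands, *Wnt2b*, a WNT that can act through beta-catenin, showed the largest difference. Its levels in replicates 1 to 5 were 8.86, 8.76, 8.51, 8.03 and 8.0 in dKO XY, 9.89, 10.48, 10.47, 10.20 and 10.23 in control XX, and 7.36, 7.46, 7.16, 7.50 and 6.84 in control XY. The 3 groups did not overlap, and dKO XY lay between the controls. *Wnt2b* was higher in dKO XY than control XY by 1.17 ± 0.18 (SE, limma adjusted p = 0.00054) and lower than control XX, at -1.82 ± 0.18 (adjusted p = 2.6e-06). In control XX it was 2.99 ± 0.18 higher than control XY (adjusted p = 3.1e-09). The 3 comparisons share arrays and are not independent of each other.

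Within dKO XY, replicates 4 and 5 were the lowest in *Wnt2b*. Their mean levels of 8 granulosa cell genes were also the lowest, at 7.66 and 7.75. Replicates 1 to 3 had 7.91 to 8.09. Replicates 4 and 5 were lowest for the mesonephros and duct genes too, at 5.79 and 5.70. The surface epithelium genes had another order, highest in replicate 5 (9.35) and lowest in replicate 3 (8.88). The granulosa cell list averaged 7.66 to 8.09 in dKO XY, 9.18 to 9.36 in control XX and 6.28 to 6.47 in control XY. Of its 8 genes, 6 were called higher in dKO XY than control XY (*Foxl2*, *Fst*, *Lgr5*, *Runx1*, *Rspo1* and *Irx3*). *Wnt4*, the other main ovarian ligand, did not pass there, at 0.21 ± 0.14 (adjusted p = 0.44). The part of granulosa cells or other cell types in the *Wnt2b* difference was not tested. In RNA of a whole gonad, more cells of a type and more RNA per cell cannot be told apart.

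*Wnt6* was the other ligand to pass the test. It had 8.55, 8.67, 8.48, 8.25 and 8.54 in dKO XY, 7.97, 8.39, 8.07, 8.35 and 8.33 in control XX, and 7.88, 7.77, 7.70, 7.60 and 7.65 in control XY. All dKO XY arrays were above all control XY arrays, and so were all control XX arrays. The difference was 0.78 ± 0.10 between dKO XY and control XY (adjusted p = 9.3e-05) and 0.50 ± 0.10 between control XX and control XY (adjusted p = 0.001). Here the mean of dKO XY was also above that of control XX, by 0.28 ± 0.10, with overlapping arrays and an adjusted p of 0.075. *Wnt10a*, its neighbour on chromosome 1 and another beta-catenin ligand, was low in all groups, at 3.91 ± 0.09, 3.86 ± 0.12 and 3.93 ± 0.04 in dKO XY, control XX and control XY (SD, n = 5 each).

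**Figure D2:**
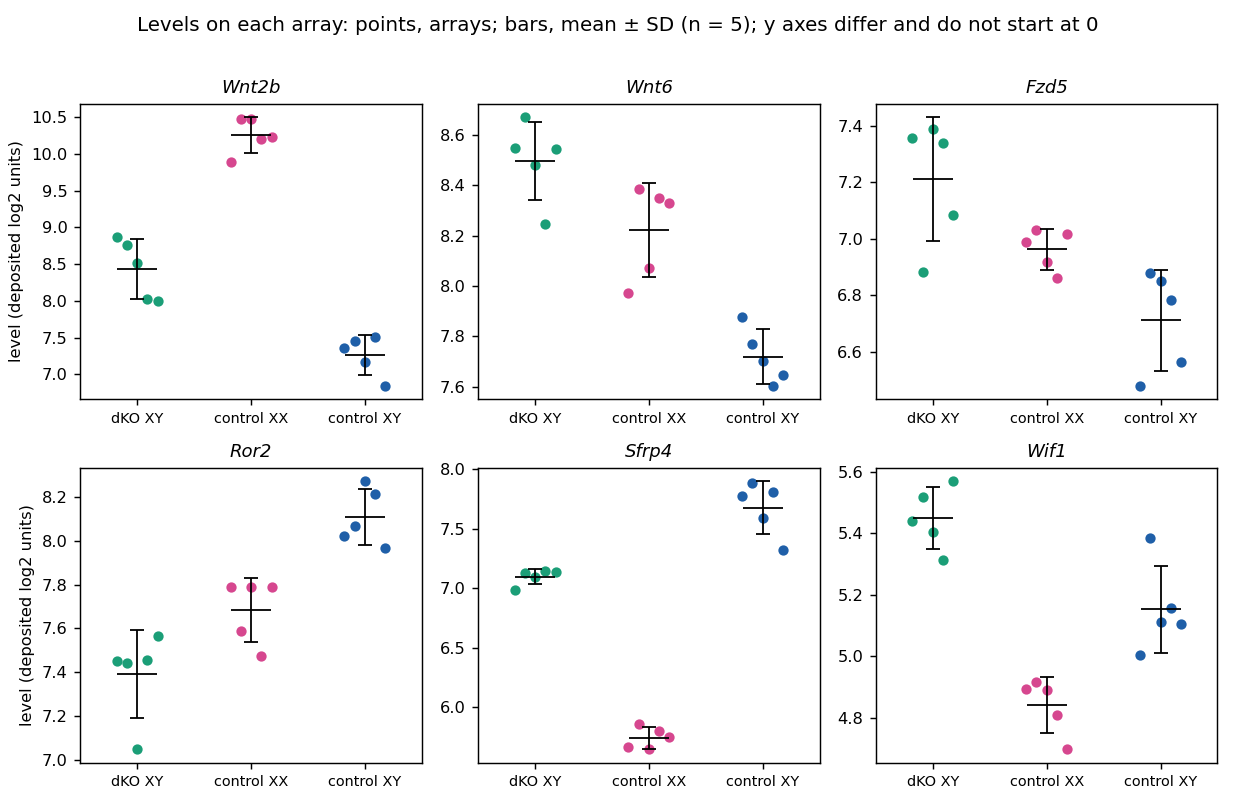
Levels on each array (points) with mean and SD (bars, n = 5) of the 2 ligands, the 2 receptors and 2 of the inhibitors that passed the test between dKO XY and control XY, in deposited log2 units. *Wnt2b* and *Sfrp4* of dKO XY lie between the controls without overlap, *Wnt6* and *Wif1* have their highest mean in dKO XY, at 8.50 and 5.45, and *Ror2* its lowest, at 7.39.

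Genes of the surface epithelium, which covers the gonad, were on average higher in the same groups as *Wnt6*, and so were the granulosa cell genes. The mean level over 6 surface epithelium genes was 8.88 to 9.35 in dKO XY, 9.16 to 9.53 in control XX and 7.98 to 8.46 in control XY. Of the 6, 4 were called higher in dKO XY than control XY (*Upk3b*, *Muc16*, *Krt19* and *Wt1*), while *Msln* and *Lhx9* differed by 0.24 and -0.23 and did not pass the test. The part of these cells in the *Wnt6* and *Wnt2b* differences was not tested.

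The other 15 ligands differed by -0.02 to 0.29 between dKO XY and control XY, with adjusted p from 0.14 upward. Of all 17 ligands, 16 had a positive difference, beside 34127 of the 65956 clusters. The median was 0.08 over the ligands and 0.01 over all clusters. Most of the 15 lay near the background probe sets, and for *Wnt1*, *Wnt8b* and *Wnt10a* the group means stayed between 3.72 and 3.93. *Wnt3a*, a potent activator of beta-catenin, showed a difference of 0.16 ± 0.07 with no overlap (adjusted p = 0.225). *Wnt9b* and *Wnt7a*, made by the mesonephric and Müllerian duct epithelium, differed by 0.05 ± 0.09 and 0.06 ± 0.07. The mean level of 5 mesonephros and duct genes was 5.70 to 5.97 in dKO XY, 5.95 to 6.17 in control XX and 5.36 to 5.75 in control XY. Of the 5, *Emx2*, which gonadal cells also make, was called higher in dKO XY than control XY. The others did not pass, at 0.54 for *Lhx1* (adjusted p = 0.052), 0.02 for *Pax8*, 0.03 for *Cdh16* and -0.03 for *Pax2*. All group means of *Lhx1*, *Cdh16* and *Pax2* lay under 5.95. The part of these cells in the ligand differences was not tested.

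Another 2 ligands passed the test in comparisons with the ovary only. *Wnt3*, known for its part in gastrulation, had 5.41, 5.42, 5.62, 5.78 and 5.75 in dKO XY, 5.16, 4.80, 5.11, 4.70 and 4.73 in control XX, and 5.35, 6.0, 5.43, 5.27 and 5.00 in control XY. It was 0.70 ± 0.16 higher in dKO XY than control XX (adjusted p = 0.005) without overlap, and lower in control XX than control XY (-0.51 ± 0.16, adjusted p = 0.024) with overlap. *Wnt9a*, a ligand best known from joints and limbs, averaged 5.56 ± 0.27 in dKO XY, 5.66 ± 0.20 in control XX and 5.27 ± 0.14 in control XY, and only the difference between the controls passed (0.39 ± 0.12, adjusted p = 0.03). The controls' difference in *Wnt3* missed the threshold with only these groups fitted, and when replicate 2, 4 or 5 of control XX was left out (adjusted p = 0.052 to 0.063). That in *Wnt9a* missed it when replicate 1 of control XX or replicate 3 or 5 of control XY was left out, and with replicate blocks (adjusted p = 0.0504 to 0.0814). All group means of *Wnt3* and *Wnt9a* lay under 5.95, the 95th percentile of the background probe sets.

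Of the 10 Frizzled receptors, *Fzd5* alone passed the test between dKO XY and control XY. It had 7.35, 6.88, 7.39, 7.34 and 7.08 in dKO XY, 6.99, 7.03, 6.92, 6.86 and 7.02 in control XX, and 6.48, 6.88, 6.85, 6.78 and 6.56 in control XY. Replicate 2 of dKO XY barely exceeded replicate 2 of control XY, and the rest of the dKO XY arrays were clear of control XY. The difference was 0.50 ± 0.11 (adjusted p = 0.0055), with 0.25 ± 0.11 between dKO XY and control XX (adjusted p = 0.15). The median over the 10 Frizzleds was -0.02.

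The other 9 Frizzleds differed by -0.27 to 0.13 between dKO XY and control XY, with 95% intervals that together reached from -0.58 to 0.29. *Fzd7*, a receptor of beta-catenin signals, averaged 8.85 ± 0.13 in dKO XY, 8.76 ± 0.09 in control XX and 8.84 ± 0.14 in control XY. *Fzd3*, which acts in planar polarity and axon guidance, had 9.41 ± 0.06, 9.51 ± 0.13 and 9.48 ± 0.12 in the same groups. *Fzd6*, its close relative in planar polarity, was 0.27 ± 0.07 higher in dKO XY than control XX (adjusted p = 0.023). *Fzd2* was lower in control XX than control XY (-0.29 ± 0.09, adjusted p = 0.032), at 9.87 ± 0.16 and 10.16 ± 0.14. The test was missed in 6 of 23 alternative settings for *Fzd6* (adjusted p = 0.057 to 0.093), among them leaving out replicate 1 or 4 of either group. For *Fzd2* it was missed in 10 of 23 (0.05 to 0.085), among them leaving out replicate 2, 4 or 5 of control XX, or replicate 2, 3 or 4 of control XY.

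*Ror2*, a receptor tyrosine kinase for WNT5A, was the gene furthest down in dKO XY. Its levels were 7.45, 7.44, 7.05, 7.45 and 7.57 in dKO XY, 7.79, 7.59, 7.79, 7.47 and 7.79 in control XX, and 8.02, 8.07, 8.27, 8.21 and 7.97 in control XY. Every array of dKO XY and of control XX was below every array of control XY. Against control XY, the difference was -0.72 ± 0.10 in dKO XY (adjusted p = 0.00026) and -0.42 ± 0.10 in control XX (adjusted p = 0.0051). Between dKO XY and control XX it differed by -0.29 ± 0.10 (adjusted p = 0.068). Its ligand gene *Wnt5a* had differences of -1.97 ± 0.11 between dKO XY and control XY and -2.60 ± 0.11 between control XX and control XY.

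The lowest *Ror2* array, dKO XY replicate 3, was also lowest of its group in the interstitial progenitor genes. Their mean over 6 genes was 10.77 there and 11.31 to 11.56 on the other dKO XY arrays. This was not particular to that list. The same array was lowest of its group for the Sertoli, fetal Leydig, surface epithelium, endothelial, pericyte and macrophage genes. For the granulosa, mesonephros and duct, and erythroid genes it was the highest. The interstitial mean was 10.54 to 11.42 in control XX and 12.52 to 12.78 in control XY. Of the 6 genes, 5 were called lower in dKO XY than control XY, *Wnt5a* among them. The pericyte and smooth muscle genes had means of 8.83 to 9.59 in dKO XY, 8.16 to 8.65 in control XX and 9.96 to 10.30 in control XY, with 1 of 5 called lower in dKO XY than control XY. Without replicate 3 of dKO XY the *Ror2* difference was -0.63 and still passed. The part of these cells in the *Ror2* difference was not tested.

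**Figure D3:**
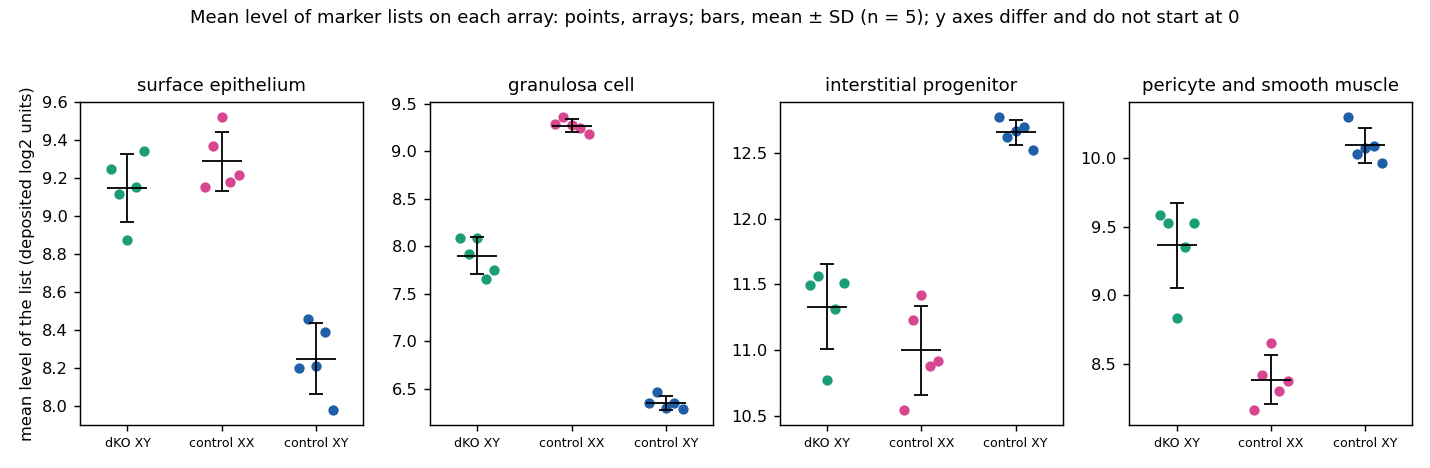
Mean level of 4 marker lists on each array (points) with mean and SD (bars, n = 5), in deposited log2 units. The means of the surface epithelium and granulosa cell lists are higher on all dKO XY and control XX arrays than on any control XY array, and those of the interstitial progenitor and pericyte lists are lower.

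The remaining receptors did not pass the test between dKO XY and control XY. *Lrp5*, a co-receptor for beta-catenin signals, differed by -0.02 (95% interval -0.19 to 0.14) between these groups and was lower in the ovary. It had 9.66, 9.53, 9.49, 9.63 and 9.52 in dKO XY, 9.15, 9.20, 9.12, 8.93 and 9.33 in control XX, and 9.48, 9.67, 9.66, 9.64 and 9.52 in control XY. The dKO XY arrays overlapped those of control XY and were all above control XX, by 0.42 ± 0.08 (adjusted p = 0.00104), and control XX differed from control XY by -0.45 ± 0.08 (adjusted p = 0.00034). *Ryk*, a WNT-binding receptor without kinase activity, had the opposite order, with 11.55 ± 0.08 in dKO XY, 11.76 ± 0.06 in control XX and 11.53 ± 0.04 in control XY. It was 0.23 ± 0.06 higher in control XX than control XY (adjusted p = 0.0105), without overlap. *Lrp6*, the close relative of *Lrp5*, differed by -0.19 ± 0.08 between dKO XY and control XY without overlap, and did not pass (adjusted p = 0.15). *Ror1*, the relative of *Ror2*, had the widest spread between arrays of a group among the 50 genes, a pooled SD of 0.46, and 8.58 ± 0.37, 9.18 ± 0.43 and 8.80 ± 0.56 in dKO XY, control XX and control XY.

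Of the 13 secreted inhibitors and Kremen proteins, 1 was higher (*Wif1*) and 2 were lower (*Sfrp4* and *Kremen2*) in dKO XY than control XY by the test, beside 4.41% and 6.02% of all clusters. In control XX, 2 were higher and 6 lower than control XY, beside 10.8% and 13.4% of all clusters, and the difference between those counts was not tested. *Sfrp4*, a secreted Frizzled-related WNT antagonist, had the largest difference of those that passed, in all 3 comparisons. Its levels were 6.98, 7.13, 7.09, 7.14 and 7.14 in dKO XY, 5.66, 5.86, 5.64, 5.80 and 5.75 in control XX, and 7.78, 7.88, 7.59, 7.81 and 7.32 in control XY. The groups did not overlap, and dKO XY lay between the controls and nearer to control XY. The difference was -0.58 ± 0.09 between dKO XY and control XY (adjusted p = 0.00086), 1.35 ± 0.09 between dKO XY and control XX (adjusted p = 6.2e-08), and -1.93 ± 0.09 between control XX and control XY (adjusted p = 3e-10). The ovary level lay under 5.95, so the last 2 differences include a level within the range of the background probe sets.

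*Sfrp1*, which together with *Sfrp2* is needed for normal male sexual development in the mouse, had 14.51, 14.64, 13.36, 13.97 and 14.11 in dKO XY, 13.82, 13.74, 14.56, 13.85 and 13.76 in control XX, and 15.20, 14.91, 14.66, 14.67 and 14.52 in control XY. Replicate 2 of dKO XY and replicate 3 of control XX reached above the lowest control XY array. Its difference of -0.67 ± 0.22 between dKO XY and control XY had an adjusted p of 0.061, and the 95% interval reached from -1.14 to -0.21. It passed in 5 of 23 alternative settings (adjusted p = 0.027 to 0.048), among them leaving out replicate 2 of dKO XY (-0.80) or replicate 3 of control XX. Between control XX and control XY it was -0.85 ± 0.22 and passed (adjusted p = 0.0081). *Sfrp2* itself averaged 7.92 ± 0.10 in dKO XY, 8.29 ± 0.27 in control XX and 8.01 ± 0.16 in control XY. *Frzb*, another Frizzled-related antagonist, was lower in control XX than control XY (-0.44 ± 0.13, adjusted p = 0.017), and *Sfrp5* differed by 0.03 and -0.09 in dKO XY and control XX against control XY.

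*Wif1*, which binds WNT ligands and is known as a gene that AMH switches on in Müllerian duct mesenchyme, had its highest levels in dKO XY. They were 5.44, 5.52, 5.41, 5.31 and 5.57 in dKO XY, 4.89, 4.92, 4.89, 4.81 and 4.70 in control XX, and 5.01, 5.38, 5.11, 5.16 and 5.10 in control XY. Only replicate 2 of control XY reached into the range of dKO XY, and control XX was below both. *Wif1* was 0.30 ± 0.08 higher in dKO XY than control XY (adjusted p = 0.024) and 0.61 ± 0.08 higher than control XX (adjusted p = 4.7e-05). The difference from control XY missed the threshold when replicate 2 or 5 of dKO XY, or replicate 1, 3 or 5 of control XY, was left out (adjusted p = 0.054 to 0.065). All these levels lay under the 95th percentile of the background probe sets.

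The Kremen proteins, receptors for Dickkopf proteins that take LRP6 from the cell surface, differed between the controls in opposite directions. *Kremen1* had 7.29, 7.14, 7.13, 7.15 and 7.16 in dKO XY, 7.52, 7.84, 8.10, 7.72 and 7.79 in control XX, and 6.90, 7.07, 7.15, 6.88 and 7.02 in control XY. All control XX arrays were above all others. Control XX was 0.79 ± 0.09 above control XY (adjusted p = 6.7e-06), and dKO XY differed from control XX by -0.62 ± 0.09 (adjusted p = 0.00018). *Kremen2* had 6.02, 6.07, 6.19, 6.18 and 6.34 in dKO XY, 5.89, 5.75, 5.55, 5.80 and 5.69 in control XX, and 6.41, 6.42, 6.65, 6.33 and 6.67 in control XY. It was lower in control XX than control XY (-0.76 ± 0.09, adjusted p = 6.6e-06) without overlap, and its control XX mean lay under 5.95. Between dKO XY and control XY *Kremen2* was also lower (-0.33 ± 0.09, adjusted p = 0.024), with 1 dKO XY array above the lowest control XY array. That last difference missed the threshold when replicate 1 or 2 of dKO XY, or replicate 3 or 5 of control XY, was left out and under 2 other settings (adjusted p = 0.056 to 0.07).

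**Figure D4:**
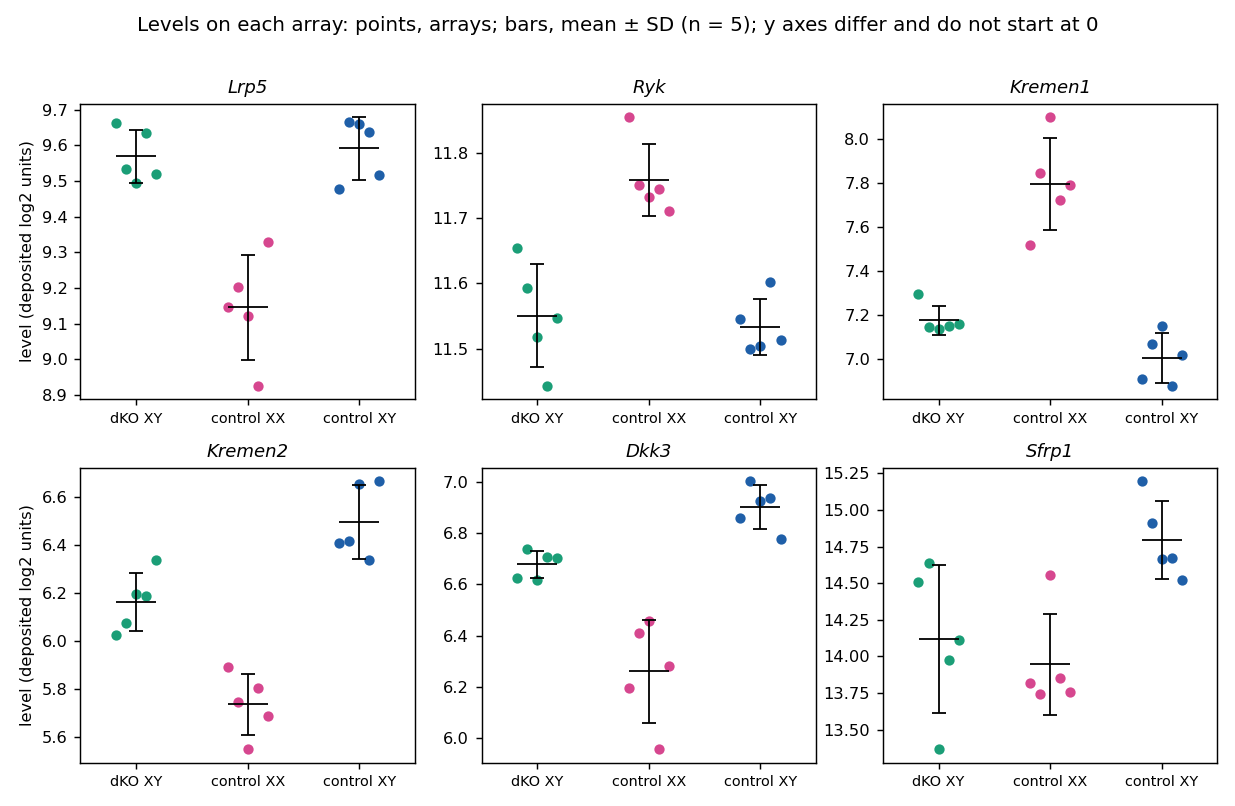
Levels on each array (points) with mean and SD (bars, n = 5) of 6 receptors, Kremen genes and inhibitors whose controls differed by the test, in deposited log2 units. In *Lrp5*, *Ryk* and *Kremen1* the dKO XY points lie with or close to control XY and apart from control XX.

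Of the Dickkopf genes, *Dkk3*, a divergent member of the family, had 6.62, 6.74, 6.62, 6.71 and 6.70 in dKO XY, 6.19, 6.41, 6.46, 5.96 and 6.28 in control XX, and 6.86, 7.0, 6.92, 6.94 and 6.78 in control XY. The 3 groups did not overlap. It was lower in control XX than control XY (-0.64 ± 0.09, adjusted p = 3e-05) and 0.42 ± 0.09 higher in dKO XY than control XX (adjusted p = 0.003). Its difference between dKO XY and control XY, -0.22 ± 0.09, did not pass (adjusted p = 0.13). *Dkk1*, the LRP6 antagonist of the embryonic head, differed by -0.28 ± 0.10 between dKO XY and control XY (adjusted p = 0.078) and passed with array weights alone (-0.33, 0.028). *Dkk2*, a relative of it, had 5.41, 5.45, 5.56, 5.37 and 6.13 in dKO XY, 5.01, 4.92, 5.15, 5.01 and 5.02 in control XX, and 4.99, 5.31, 5.59, 6.53 and 5.47 in control XY, with a difference of 0.01 ± 0.22 between dKO XY and control XY. *Notum*, the WNT lipase and itself a target of beta-catenin, averaged 5.60 ± 0.17 in dKO XY, 5.89 ± 0.23 in control XX and 5.44 ± 0.09 in control XY, with 0.45 ± 0.11 between the controls (adjusted p = 0.005). All group means of *Dkk1*, *Dkk2* and *Notum* lay under 5.95, the 95th percentile of the background probe sets.

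The R-spondins of the set did not pass the test between dKO XY and control XY, with differences of -0.01 (*Rspo2*), -0.36 (*Rspo3*) and -0.40 (*Rspo4*) and adjusted p from 0.079 upward. *Rspo4*, an R-spondin of nail development, had 5.43, 5.55, 5.47, 5.41 and 5.76 in dKO XY, 5.42, 5.36, 5.14, 5.34 and 4.98 in control XX, and 6.14, 5.39, 6.22, 5.87 and 5.99 in control XY. Replicate 2 of control XY was below all of dKO XY, and the other control XY arrays were above all of dKO XY. Without that array the difference between dKO XY and control XY was -0.53 and passed (adjusted p = 0.0036), as it did with array weights (0.047). *Rspo4* was lower in control XX than control XY (-0.67 ± 0.14, adjusted p = 0.00134). All its group means lay under 5.95, the 95th percentile of the background probe sets. *Rspo1* of the wider pathway had differences of 2.33 ± 0.15 between dKO XY and control XY and 2.97 ± 0.15 between control XX and control XY.

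Of the secretion factors, *Wls*, which encodes Wntless, had 10.45, 10.30, 10.09, 9.95 and 10.02 in dKO XY, 9.90, 10.57, 10.22, 9.83 and 10.07 in control XX, and 9.69, 9.93, 9.80, 9.93 and 9.64 in control XY. All dKO XY arrays were above all control XY arrays, yet the difference of 0.36 ± 0.13 did not pass (adjusted p = 0.1), except without replicate 2 of control XX (0.046). In total 5 of the 50 genes were higher and 4 lower without overlap between dKO XY and control XY, beside 4.26% and 4.59% of all clusters. *Porcn*, the X-linked gene of the acyltransferase Porcupine, had 6.70, 6.47, 6.58, 6.59 and 6.46 in dKO XY, 8.18, 6.53, 6.33, 6.72 and 7.23 in control XX, and 6.56, 6.48, 6.65, 6.49 and 6.60 in control XY. Its ovary arrays ranged over more than 1 unit, with replicates 1 and 5 the highest, and no comparison of *Porcn* passed.

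Between the controls, *Wnt2b* was called higher and *Sfrp4* called lower in control XX, where 2.54% and 3.22% of all clusters were called. By the test alone 6 genes were higher (12%) and 11 lower (22%), beside 10.8% and 13.4% of all clusters, and 6 each way did not overlap, beside 8.38% and 9.79%. The 6 higher by the test were *Wnt2b*, *Wnt6*, *Wnt9a*, *Ryk*, *Notum* and *Kremen1*, and the 11 lower were *Wnt3*, *Fzd2*, *Lrp5*, *Ror2*, *Sfrp1*, *Sfrp4*, *Frzb*, *Wif1*, *Dkk3*, *Kremen2* and *Rspo4*. Between dKO XY and control XX, *Sfrp4* was called higher and *Wnt2b* lower, where 1.22% and 1.28% of all clusters were called, and 7 genes were higher and 4 lower by the test, beside 7.55% and 7.51%. Without overlap, 8 were higher and 3 lower, beside 6.4% and 5.89%. The 7 higher by the test were *Wnt3*, *Fzd6*, *Lrp5*, *Sfrp4*, *Wif1*, *Dkk3* and *Kremen2*, and the 4 lower were *Wnt2b*, *Ryk*, *Sfrp2* and *Kremen1*. *Sfrp2* (-0.37 ± 0.12, adjusted p = 0.037) missed the threshold in 11 of 23 alternative settings, among them leaving out any of dKO XY replicates 1 to 4 or control XX replicates 1 to 3 (0.053 to 0.094 over the 11). *Ryk* (-0.21 ± 0.06, adjusted p = 0.027) missed it in 6 of 23, among them leaving out replicate 3, 4 or 5 of dKO XY, or replicate 1 of control XX (0.0504 to 0.0805).

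The wider WNT pathway was followed through a list of 33 other genes, of which 28 had a cluster with their symbol alone. Between dKO XY and control XY, 3 were called higher and 1 lower, beside 0.567% and 1.62% of all clusters, and by the test 8 were higher and 6 lower, beside 4.41% and 6.02%. The 3 were *Rspo1*, *Lgr5*, a receptor for R-spondins, and *Tnfrsf19*, a beta-catenin target also called *Troy*, at 2.91 ± 0.17 (adjusted p = 4.5e-08), and the 1 was *Wnt5a*. *Lgr5*, *Rspo1* and *Wnt4* also stood on the granulosa cell list, and *Wnt5a* on the interstitial progenitor list. The feedback genes *Axin2* (0.84 ± 0.09) and *Nkd1* (0.64 ± 0.11), which damp beta-catenin signals, and *Znrf3* (0.45 ± 0.11), which removes Frizzleds, were higher by the test, as were *Lgr4* (0.57 ± 0.11) and *Sp5* (0.41 ± 0.10). *Nkd2*, the relative of *Nkd1*, did not pass (0.31 ± 0.11, adjusted p = 0.079). Beside *Wnt5a*, the genes lower by the test were the planar polarity genes *Prickle1* (-0.44 ± 0.10) and *Vangl2* (-0.23 ± 0.07) and the nuclear factors *Tcf7l2* (-0.31 ± 0.07), *Tcf7l1* (-0.26 ± 0.08) and *Bcl9* (-0.24 ± 0.07). *Lef1*, a transcription factor of the pathway, differed by 0.13 ± 0.18 (adjusted p = 0.77), while between control XX and control XY it was 0.89 ± 0.18 higher (adjusted p = 0.0014). Between control XX and control XY 6 of the 28 were called higher and 2 lower, beside 2.54% and 3.22% of all clusters, with a median difference of 0.38 beside -0.01 over all clusters.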

How the data were processed

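Per the labels and the study's methods, total RNA was amplified with the NuGEN WT-Ovation Pico kit and hybridized to 15 Affymetrix arrays, and the authors deposited 1 log2 value per transcript cluster, summarized and normalized by RMA. The scale above 16 is not explained in the sources used here. Of 72688 entries, 6732 control entries were left out and 65956 clusters were tested. Symbols came from the platform annotation, whose build is not given in the sources used here: 30638 clusters had 1 symbol, 2176 several and 33142 none. limma 3.58.1 in R 4.3.3 fitted a mean per group over all 15 arrays (two-sided, Benjamini-Hochberg over all clusters). The script was tested on simulated data. Array data carry no read depth, and 5 arrays per group limit the precision.

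The 50 genes and all lists were chosen with earlier results of these data known. By the rule for named genes, levels of every array were due for genes called in any comparison and for those past the test without overlap between dKO XY and control XY. Those of *Wif1*, *Wnt3*, *Lrp5*, *Sfrp1*, *Kremen1*, *Kremen2*, *Dkk2*, *Dkk3*, *Rspo4*, *Wls* and *Porcn*, and group values of other single genes, were added after the values were seen. Alternatives were a second quantile normalization, centred medians, a filter on dim clusters, array weights, a trended robust fit, the one-way ANOVA of the methods, only the groups compared, the test without the 1-unit minimum, replicate blocks and leaving out each array. Promoter windows are from RefSeq on GRCm38.p6.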

Additional observations from a re-analysis of the deposited data

Results flagged for a closer look

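In 13 of 150 groups of 5 arrays, 1 array stood apart from the other 4 by more than Dixon's critical value of 0.71, where chance marks about 1 in 20 groups, or 7.5 here. In the dKO XY group these were *Fzd2* in replicate 1 (9.72, others 9.96 to 10.02), *Ror2* in replicate 3 (7.05, others 7.44 to 7.57), *Dkk2* in replicate 5 (6.13, others 5.37 to 5.56) and *Kremen1* in replicate 1 (7.29, others 7.13 to 7.16). In the control XX group they were *Wnt9a* (6.01, others 5.52 to 5.62), *Wnt10b* (4.89, others 4.64 to 4.70) and *Ryk* (11.85, others 11.71 to 11.75) in replicate 1. In the same group, *Wnt8a* in replicate 2 (4.44, others 4.23 to 4.29), *Lrp6* in replicate 4 (12.14, others 12.41 to 12.45) and *Sfrp1* in replicate 3 (14.56, others 13.74 to 13.85) stood apart. In the control XY group they were *Wnt3a* in replicate 5 (4.26, others 4.38 to 4.39), *Fzd10* in replicate 2 (5.30, others 4.95 to 5.03) and *Rspo2* in replicate 4 (4.46, others 4.48 to 4.49).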

How the results depend on the processing

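The counts of called genes among the 50 were the same under 8 other settings and with each of the 15 arrays left out, at 1 higher and 0 lower between dKO XY and control XY and 1 each way in the other comparisons. Without the 1-unit minimum they were 4 higher and 3 lower between dKO XY and control XY, 7 and 4 between dKO XY and control XX, and 6 and 11 between control XX and control XY. Over all clusters the same change gave 2911 and 3972, 4977 and 4956, and 7094 and 8855. Leaving out single arrays gave 674 to 1392 clusters called lower between dKO XY and control XY, the lowest without control XY replicate 5, against 1070 with all arrays. The matching ranges were 313 to 425 called higher in that comparison, 747 to 860 higher and 788 to 981 lower between dKO XY and control XX, and 1606 to 1783 higher and 1896 to 2404 lower between control XX and control XY. The cause of these shifts was not tested. *Wnt2b* stayed between 1.06 and 1.28 between dKO XY and control XY with 1 array left out and between 1.01 and 1.23 under the other settings. Averaging several clusters of a gene was not run, since each gene had 1. Differences that passed the test and missed it under an alternative are given in the report, except *Frzb* between control XX and control XY, which missed it after a second quantile normalization (adjusted p = 0.07). In the other direction, 14 differences that had missed the threshold passed it under 1 to 5 of the alternatives. The 4 between dKO XY and control XY (*Sfrp1*, *Dkk1*, *Rspo4* and *Wls*) are given in the report. Between dKO XY and control XX, *Wnt6* passed without dKO XY replicate 4 (0.031), *Fzd5* without dKO XY replicate 2 (0.034), *Wnt3a* in 3 settings (0.037 to 0.041, without control XX replicate 1 or 4 among them) and *Ror2* in 2 (0.038 and 0.046, without control XX replicate 4 among them). *Fzd4* passed there in 2 (0.0145 and 0.0427, without control XX replicate 4 among them), *Dkk2* in 2 (0.011 and 0.012, without control XY replicate 4 among them) and *Notum* in 3 (0.034 to 0.043, without dKO XY replicate 3 among them). Between control XX and control XY, *Sfrp2* passed without replicate 4 of either group (0.032 and 0.048), *Dkk2* without control XY replicate 1 (0.023) and *Wls* without control XX replicate 4 (0.046).

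Replicate numbers gave little sign of pairing the arrays. Same-numbered deviations correlated at -0.19 to -0.04 between dKO XY and control XY, with 0 of 5 pairs above 0.1. The range was -0.11 to 0.19 between control XX and control XY and -0.17 to 0.16 between dKO XY and control XX. In each of these, 1 of 5 pairs was above 0.1. With the replicate block, 369 clusters were called higher and 1052 lower between dKO XY and control XY. There were 796 and 849 between dKO XY and control XX, and 1675 and 2123 between control XX and control XY. The called counts among the 50 genes were as without it. By the adjusted p alone, 6 differences missed the threshold with the block: *Kremen2* between dKO XY and control XY (0.0557), *Fzd6* (0.0682), *Ryk* (0.063) and *Sfrp2* (0.072) between dKO XY and control XX, and *Fzd2* (0.05) and *Wnt9a* (0.0504) between control XX and control XY.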
